A study of Mus musculus with 10 samples.

Results

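Inbred C57BL/6 mice are kept as several substrains, and a small set of genes is known to differ between them in sequence, copy number or expression. Retinal levels of 7 such genes were compared here: Wdfy1, Nnt, Fgfbp3, Ide, Entpd4, Crb1 and Cyfip2. They were found by symbol in a deposited count table of 36115 genes, where they fill 8 rows because Ide has a row on chromosome 19 and another on an alternate scaffold. The question was whether these genes stood at the same level in retinas of wild-type mice and of an Il6 knockout line, as a reading of genetic background. Of the 8 rows, 6 had enough reads to be tested, and 2 of them passed the test: Wdfy1 was lower and Fgfbp3 was higher in the libraries labelled knockout. Among all 18965 tested genes the share called was 2.03%, with 0.859% higher and 1.17% lower. The 7 genes were chosen with earlier results of these data known, so their share, 33.3% of the tested rows, is a description.

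The retinas came from untreated mice aged 3 months. Wild-type mice and mice of the genotype B6.129S2-Il6tm1Kopf/J were both labelled with a C57BL/6 strain background, and neither label names the substrain of the wild-type mice. The knockout allele was made in 129S2 embryonic stem cells and inserts a cassette into Il6, the gene of the cytokine interleukin-6. There were 5 libraries a group. W1 to W5 stand for wild type and K1 to K5 for the labelled knockout, numbered in accession order, and the numbers pair nothing. Whether each library came from its own animal is not in the labels, so the p-values rest on a spread between samples that may be technical. They also give no litter, sex, date or batch, and the index sequences show only that K5 carries a different second index.

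Each of these genes is known in its own field. Wdfy1 encodes an endosomal adaptor that helps Toll-like receptors 3 and 4 recruit the signalling protein TRIF. Nnt encodes the transhydrogenase of the inner mitochondrial membrane that makes NADPH for peroxide removal, and C57BL/6J mice carry an internal deletion in it. Fgfbp3 encodes a secreted protein that binds fibroblast growth factors, and Ide encodes a zinc protease that degrades insulin and amyloid beta. The last pair lie close together on chromosome 19, in a segment reported to vary in copy number within C57BL/6J. Entpd4 encodes a nucleoside diphosphatase of the Golgi and lysosomes, and the reference genome holds a second copy of it. Crb1 encodes an apical polarity protein of the retina's outer limiting membrane, and C57BL/6N mice carry the rd8 frameshift in it. Cyfip2 encodes a subunit of the actin-regulating WAVE complex, and C57BL/6N mice carry a missense change in it. Counts per gene do not read the rd8 or Cyfip2 alleles themselves.

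Total counts ran from 30433373 to 38857374 a library. Il6 itself had at most 1 count in any wild-type library and 3 to 7 counts in each library labelled knockout. Its counts were thus higher, not lower, under the knockout label (exact permutation p = 0.00794, two-sided, the smallest that 5 against 5 libraries allow). Such few counts per gene do not show whether the transcript is intact, so they neither bear out nor contradict the genotype labels. The labels were kept as given, and directions below are of the libraries labelled knockout over those labelled wild type. The tissue label was checked against markers of retinal cells: summed rod markers stood between 45030 and 64482 CPM (a gene's counts scaled to a common library size) in all 10 libraries, and summed lens markers at most at 0.502 CPM. Since these are whole retinas, fewer cells of a type and less RNA per cell cannot be told apart.

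The sequence of Entpd4 is shown first, because it decides what its counts can mean. The first 60 coding bases of Entpd4 and of its copy Entpd4b, read from GENCODE M21 on GRCm38 with the start codon in capitals, were as follows.
Entpd4: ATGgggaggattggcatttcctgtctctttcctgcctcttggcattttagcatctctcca
Entpd4b: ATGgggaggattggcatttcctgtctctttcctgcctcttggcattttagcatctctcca
Both coding sequences are 1842 bases long, and 0 of those bases differ. Every stretch of 100 bases in the Entpd4 transcript, 3490 of 3490, was also found in another annotated gene. Entpd4b was not the only gene to share them: Gm16867 and further gene models did too. A read from the coding sequence of either copy therefore matches both, and the counts of Entpd4 are those of whatever reads were assigned to it. The transcript compared has 3589 bases, against 8074 bases of merged exons, and the rest was not compared. For Wdfy1, Fgfbp3, Crb1 and Cyfip2, 0% of such stretches were shared with another gene of the annotation. The share was also 0% for the chromosome row of Ide. The gene of its scaffold row is not in that annotation, so this value cannot show sharing between the Ide rows. Nnt shared 96.3% of its stretches with a second gene model of the same name at the same locus.

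Levels of the members were first ordered within the retina, as CPM per kilobase of merged exons. Cyfip2 had the highest mean level over the 10 libraries, 55.5 CPM per kb, with 4.11% of 14734 protein-coding genes above it. Crb1 followed at 30.6, then Fgfbp3 at 9.86 and Wdfy1 at 7.08 CPM per kb. Fgfbp3 and Wdfy1 changed places between the groups: in wild type Wdfy1 stood at 10.4 and Fgfbp3 at 7.53 CPM per kb, against 3.75 and 12.2 among the libraries labelled knockout. Nnt stood at 0.0511 CPM per kb, with 99.7% of coding genes above it, and Entpd4 at 0.0289 CPM per kb. The chromosome 19 row of Ide was at the bottom, with 2 reads in all, and its scaffold row, without an exon length, was not ranked. The low places of Nnt, Entpd4 and Ide are places of assigned counts. How reads matching several gene models were assigned is not given.

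**Figure D1:**
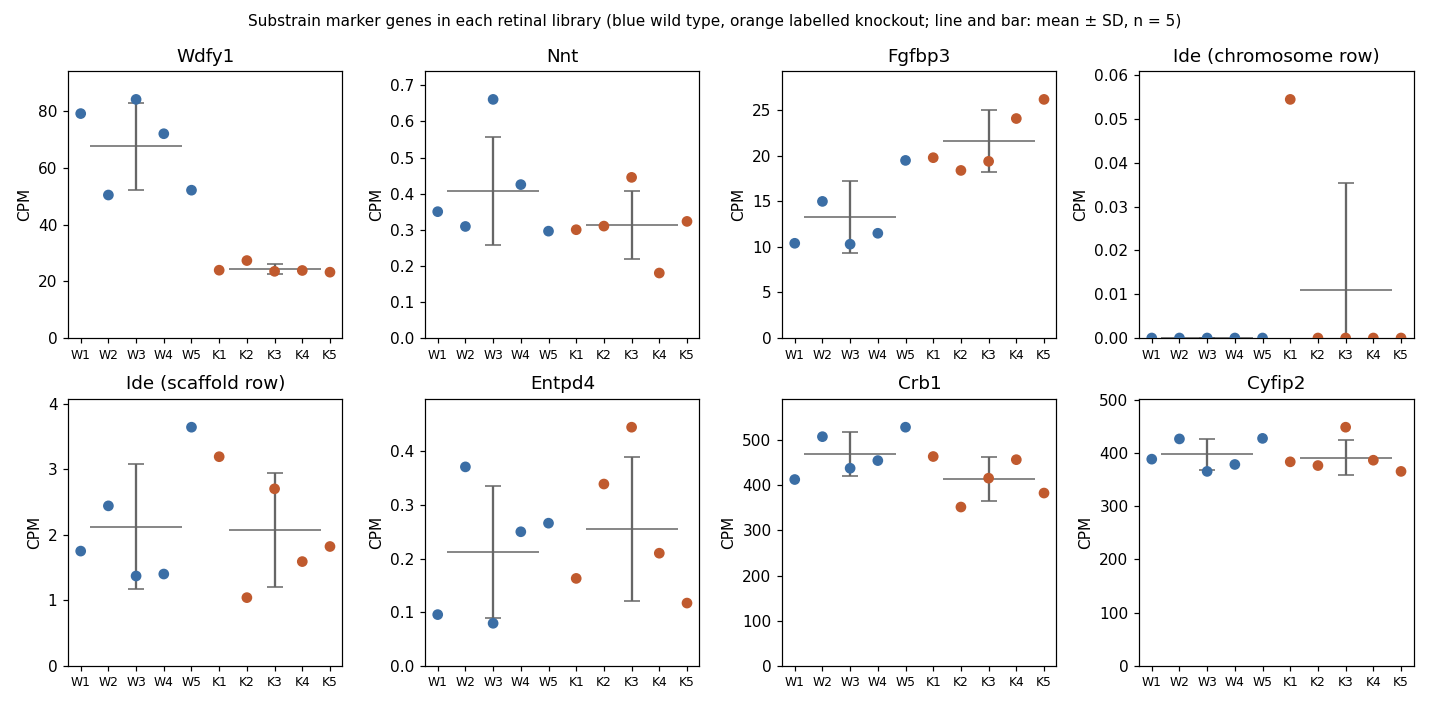
CPM (y axis, starting at 0) of each member row in each library (x axis; blue W1 to W5, orange K1 to K5), with the mean ± SD of 5 libraries as a line and bar. The K libraries of Wdfy1 sit between 23.2 and 27.3 CPM, all below the W libraries, and every other row overlaps between the groups.

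Wdfy1 (ENSMUSG00000073643.11, chromosome 1, 79702262 to 79776143, GRCm38, minus strand) was the member that differed most. Its level was 79.1, 50.4, 84.1, 72.0 and 52.1 CPM in W1 to W5. It was 23.9, 27.3, 23.5, 23.8 and 23.2 CPM in K1 to K5. The lowest wild-type library, W2, lay well above the highest of the others, K2, so the groups did not overlap, as in 3.48% of all tested genes. The wild-type libraries also fell apart among themselves, with W2 and W5 near 50 CPM and W1, W3 and W4 above 70 CPM. Their coefficient of variation was 22.9%, against 6.86% in the libraries labelled knockout.

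The mean of Wdfy1 went from 67.5 ± 15.5 to 24.3 ± 1.67 CPM (SD, n = 5), a level 2.78-fold lower in the libraries labelled knockout. Its log2 fold change was -1.47 (SE 0.13, 95% interval -1.77 to -1.17), with a Benjamini-Hochberg adjusted p of 8.14e-06 in edgeR's quasi-likelihood test. By p it ranked 19 of 18965 genes, and the exact permutation p of its log2 CPM was 0.00794 (two-sided). The gene was called under each of 17 alternatives in processing, where its log2 fold change ran from -1.56 to -1.38 and its adjusted p from 8.63e-25 to 9.87e-05. In the authors' deposited table its log2 fold change was -1.24 with an adjusted p of 1.29e-24, and it was the only member that table marked as significant.

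Fgfbp3 (ENSMUSG00000047632.10, chromosome 19, 36917550 to 36919615, minus strand) moved the other way. Its level was 10.4, 15, 10.3, 11.5 and 19.5 CPM in W1 to W5. It was 19.8, 18.4, 19.4, 24.1 and 26.2 CPM in K1 to K5. W5 lay above K2 and K3, so the groups overlapped through this 1 library, while the other wild-type libraries were all below every library labelled knockout. The mean went from 13.3 ± 3.93 to 21.6 ± 3.40 CPM (SD, n = 5), a 1.62-fold higher level.

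The log2 fold change of Fgfbp3 was 0.70 (SE 0.17, 95% interval 0.31 to 1.08), with an adjusted p of 0.042 in edgeR's quasi-likelihood test. Its rank by p was 337 of 18965, and the exact permutation p was 0.0238 (two-sided). The call was lost when W1, W3, W4 or any 1 of K1 to K5 was left out, with edgeR adjusted p between 0.0506 and 0.126 and log2 fold changes between 0.62 and 0.75. Without W5 the log2 fold change was 0.87 and the edgeR adjusted p 0.00235. DESeq2 (adjusted p = 0.00223) and limma-voom (adjusted p = 0.0296) also called it, and the authors' deposited table gave 0.537 on the log2 scale with an adjusted p of 0.0025 and no mark.

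**Figure D2:**
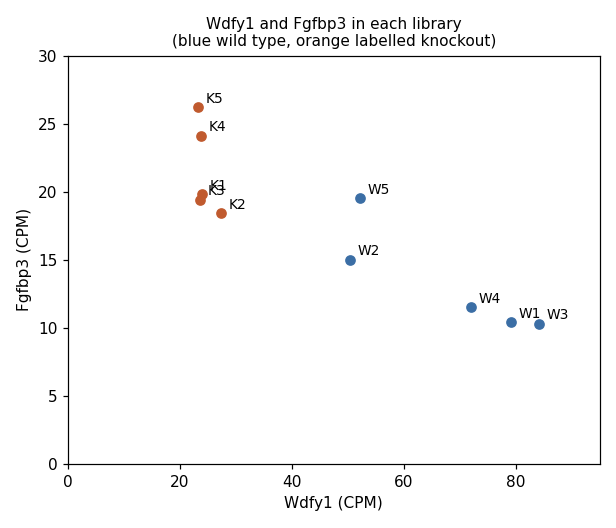
Level of Fgfbp3 (y axis, CPM) against that of Wdfy1 (x axis, CPM) in each of 10 libraries; blue points are wild type and orange points are labelled knockout. W2 and W5 lie between the other wild-type libraries and the libraries labelled knockout in Wdfy1, and in Fgfbp3 W2 lies between them and W5, at 19.5 CPM, reaches into the range of the latter.

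The same pair of wild-type libraries stood out in both called members. Wdfy1 fell in the order W3, W1, W4, W5, W2, and Fgfbp3 in the order W5, W2, W4, W1, W3. W2 and W5 were thus the wild-type libraries nearest to the mean of the libraries labelled knockout for Wdfy1 and for Fgfbp3. Among all 385 called genes the same pair was nearest in 61 genes, or 15.8%, the highest share of any pair. W3 with W5 came close, in 57 genes or 14.8%, and the lowest share was 4.68% for W2 with W4. Of the 4 called neighbours of members described below, W2 and W5 were the nearest pair for 0. Marker sums were compared over the same libraries. W2 and W5 had the highest rod sums of the wild-type libraries, 62856 and 61092 CPM, while K libraries ranged from 45030 to 64482 CPM around them. Amacrine and ganglion markers were also highest in this pair among the wild-type libraries, with sums of 696 and 709 CPM, against 567 to 679 CPM in the K libraries. Summed pigment epithelium markers were 371 CPM in W2, the highest of the wild-type libraries, and 30.7 CPM in W5, the lowest.

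Marker sums were also set beside the called members by group. Of the microglial markers, 1 of 6 passed the test, the complement gene C1qc, which rose from 2.72 ± 0.676 to 4.62 ± 0.431 CPM (SD, n = 5) with an edgeR adjusted p of 0.0342. The microglial sum ran from 13.7 to 27.1 CPM in wild type and from 23.5 to 28.4 CPM in the libraries labelled knockout, and no marker was at 0. The pigment epithelium sum ran from 30.7 to 371 and from 157 to 309 CPM. The other marker lists (rod, Muller glia, bipolar, amacrine and ganglion, lens, erythroid, smooth muscle) overlapped between the groups in their sums. All 6 amacrine and ganglion markers had a log2 fold change below 0, with sums of 662 ± 37.3 and 616 ± 44.5 CPM (SD, n = 5), and none passed edgeR's test. The part of these cells in the differences of Wdfy1 and Fgfbp3 was not tested.

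Crb1 (ENSMUSG00000063681.14, chromosome 1, 139197056 to 139377100, minus strand) was abundant in every library and did not pass the test. Its level was 413, 508, 438, 455 and 529 CPM in W1 to W5. It was 464, 352, 416, 457 and 383 CPM in K1 to K5. The groups overlapped: K1 and K4 lay among the wild-type libraries, and K2 and K5 were the lowest of all. The mean was 469 ± 48.3 against 414 ± 48.0 CPM (SD, n = 5). The log2 fold change was -0.18 (SE 0.09, 95% interval -0.39 to 0.04), with an edgeR adjusted p of 0.43 and an exact permutation p of 0.135. That interval reaches from a drop of 0.39 to a rise of 0.04 on the log2 scale. Rod markers followed a like order: W2 and W5 led the wild-type libraries in both, and among the libraries labelled knockout K1 had the highest rod sum (64482 CPM) and K2 the lowest (45030 CPM), as for Crb1. Summed Muller glia markers had another order. Among wild-type libraries W2 was highest (6603 CPM) and W5 stood at 5092 CPM, and among the libraries labelled knockout K2 was highest (5999 CPM). The part of rod or Muller glia content in the level of Crb1 was not tested.

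Cyfip2 (ENSMUSG00000020340.16, chromosome 11, 46193850 to 46312859, minus strand) stood at 388, 426, 365, 378 and 427 CPM in W1 to W5. In K1 to K5 it stood at 383, 376, 448, 386 and 365 CPM. The groups covered nearly the same range, with K3 the highest library of all. The mean was 397 ± 28.5 against 391 ± 32.8 CPM (SD, n = 5). Its log2 fold change was -0.02 (SE 0.08, 95% interval -0.20 to 0.16), with an edgeR adjusted p of 0.946 and an exact permutation p of 0.817. Of the members, Cyfip2 had the narrowest interval, and its coefficients of variation were 7.18% (wild type) and 8.37% (labelled knockout).

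Nnt (ENSMUSG00000025453.16, chromosome 13, 119335448 to 119408997, minus strand) was barely detected in either group. W1 to W5 held 11, 10, 25, 17 and 10 counts of it, and K1 to K5 held 11, 11, 16, 6 and 11. The groups overlapped, with W3 the highest library and K4 the lowest. The 73 and 55 counts in all correspond to 0.408 ± 0.15 and 0.312 ± 0.0942 CPM (SD, n = 5). The log2 fold change was -0.39 (SE 0.33, 95% interval -1.16 to 0.37), with an edgeR adjusted p of 0.66. That interval covers a drop of 1.16 and a rise of 0.37 on the log2 scale. The second Nnt gene model of the annotation has no row of its own in the count table used here, and the sources used here do not say how reads matching both models were counted.

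Ide was counted almost wholly on an alternate scaffold. Its chromosome 19 row (ENSMUSG00000056999.14, 37268743 to 37337852, minus strand) held 2 reads in all, both in K1, and 0 in wild type. The scaffold row (ENSMUSG00000111624.1), which spans 69110 bases as does the chromosome row, held 365 and 366 counts. Across the table, 10 symbols had a row on a chromosome and another on a scaffold. Ptpmt1, with 1 read on chromosome 2 and 216 on its scaffold, and Myadm, with 8 on chromosome 7 and 167 on its scaffold, had the same lopsided split, while Rab3a had 5893 reads on chromosome 8 and 115 on its scaffold. These 3 genes were named after their values were seen. The scaffold's sequence was not analysed here, so the sharing of reads between both Ide rows was not tested.

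The scaffold row of Ide varied between libraries more than it did between groups. It stood at 1.75, 2.44, 1.37, 1.40 and 3.64 CPM in W1 to W5. In K1 to K5 it stood at 3.19, 1.04, 2.70, 1.59 and 1.82 CPM. The groups overlapped over most of their range, with W5 and K1 the highest and K2 the lowest. The mean was 2.12 ± 0.953 against 2.07 ± 0.864 CPM (SD, n = 5), the log2 fold change -0.03 (SE 0.32, 95% interval -0.77 to 0.71) and the edgeR adjusted p 0.982. With the 2 rows summed, an alternative chosen after seeing the data, it was -0.02. Fgfbp3, on the same stretch of chromosome 19, had a log2 fold change of 0.70, which lies just inside the upper end of this interval. The difference between Ide and Fgfbp3 itself was not tested.

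Entpd4 (ENSMUSG00000095463.8, chromosome 14, 69337174 to 69367270, plus strand) fell below the filter on low counts and was not tested. W1 to W5 held 3, 12, 3, 10 and 9 counts of it, and K1 to K5 held 6, 12, 16, 7 and 4. Low and high libraries occurred in both groups, which overlapped. The sums were 37 and 45 counts, and their ratio corrected for library size was 1.20 (exact 95% interval 0.76 to 1.91, counting error only). Entpd4b, the copy with the same coding sequence (chromosome 14, 69555424 to 69585520, plus strand), had 5 and 2 counts. With reads of Entpd4 and Entpd4b summed, the log2 ratio of mean CPM was 0.14, against 0.26 for Entpd4 alone. That sum leaves out Gm16867 and the further gene models that share stretches with Entpd4.

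Genes around each member were described next. Within 1 Mb of a member, 89 further genes were tested, of which 3 were called higher and 1 lower, or 4.49%, beside 2.03% of all tested genes. Their median log2 fold change was 0.04, against 0.0018 over all tested genes. The windows of Fgfbp3 and Ide overlap and share genes, and each gene was counted once. With the window widened to 2 Mb the number called stayed at 4, so the share of 4.49% holds for the 1 Mb window only. The number called ran from 1 to 11 over the alternatives in processing, and was 11 with DESeq2 and 4 with limma-voom. The 4 of limma-voom were not those of edgeR: Ccl28 and Slc25a37 stood in place of Tmem267 and Sox30.

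Around Wdfy1, 0 of 10 tested neighbours were called by edgeR or limma-voom, and their log2 fold changes lay between -0.34 and 0.28. At an unadjusted p under 0.05, which 13.8% of all tested genes reached, there was 1, Serpine2, a protease inhibitor gene named after its values were seen, at -0.34, which DESeq2 called. Mrpl44, a mitochondrial ribosomal protein gene that overlaps the start of Wdfy1 on the other strand, stood at 23.1 ± 3.28 and 26.5 ± 1.76 CPM (SD, n = 5), a log2 fold change of 0.20 with an edgeR adjusted p of 0.37. Ap1s3, an adaptor complex gene on the other side, had a log2 fold change of 0.20 (edgeR adjusted p = 0.679). No tested gene of this window moved by as much as Wdfy1.

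Around Fgfbp3, 0 of 17 tested neighbours were called by edgeR or limma-voom, 3 had an unadjusted p under 0.05, and DESeq2 called 1. That 1 was Myof, named after its values were seen, at -0.40 on the log2 scale (DESeq2 adjusted p = 0.0195, edgeR adjusted p = 0.0774). Its groups did not overlap, at 14.5 to 18.6 CPM in wild type and 10.3 to 14.4 CPM in the libraries labelled knockout. The nearest neighbour, Btaf1, a transcription factor gene, had a log2 fold change of 0.16 (SE 0.08, edgeR adjusted p = 0.402). Tnks2, a tankyrase gene, had one of 0.10 (edgeR adjusted p = 0.607). Next to Ide, Cpeb3, which encodes an RNA-binding protein, had a log2 fold change of -0.05 (edgeR adjusted p = 0.865). Exoc6, of the exocyst complex, had one of -0.34 (edgeR adjusted p = 0.183), and passed the test only without K1 (-0.44, edgeR adjusted p = 0.0452). Of the 20 tested neighbours of Ide, 1 was called: Fra10ac1 (chromosome 19, 38188481 to 38224138), 851 kb away. It stood at 15.4, 16.6, 15.5, 17.4 and 21.5 CPM in W1 to W5 and at 23.7, 20, 23.1, 24.8 and 26.4 CPM in K1 to K5. As for Fgfbp3, only W5 reached into the range of the other group. Its log2 fold change was 0.45 (SE 0.10, edgeR adjusted p = 0.0358), and the call was lost without W1, W3, W4, K1, K3, K4 or K5, where the adjusted p reached 0.105.

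The window of Nnt had the most called neighbours, 2 of 14, both higher. The gene 4833420G17Rik (chromosome 13, 119462768 to 119486120), 53.8 kb from Nnt, stood at 39.9, 32.3, 52.7, 43.0 and 45.7 CPM in W1 to W5. In K1 to K5 it stood at 53.3, 66.6, 60, 60.6 and 67.1 CPM. The groups did not overlap, with W3 just below K1. Its log2 fold change was 0.52 (SE 0.11, edgeR adjusted p = 0.0188), and the call was lost without K2, K4 or K5, with the adjusted p reaching 0.059. Gm9752 (log2 fold change -0.38, edgeR adjusted p = 0.505) lies within the span of 4833420G17Rik on the other strand, so their counts are uncertain.

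Tmem267, a transmembrane protein gene (chromosome 13, 119488039 to 119611059), 79 kb from Nnt, stood at 9.84, 11.6, 16.9, 10.3 and 12.8 CPM in W1 to W5. In K1 to K5 it stood at 29.3, 27.0, 12.5, 22.3 and 21.1 CPM. K3 lay inside the wild-type range and the other libraries labelled knockout above it. Its log2 fold change was 0.87 (SE 0.19, edgeR adjusted p = 0.031), and the call was lost with limma-voom (adjusted p = 0.0598) and without W1, W4, K1, K2, K4 or K5, where the adjusted p reached 0.078. Tmem267 overlaps 3110070M22Rik on the other strand, so their counts are uncertain.

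Of the remaining Nnt neighbours, 2 did not overlap between the groups, as was the case for 3.48% of all tested genes. Both did not pass the test, and they were named after their values were seen. The chemokine gene Ccl28 had 0.191 to 1.13 CPM in wild type and 1.34 to 2.20 CPM in the libraries labelled knockout, a log2 fold change of 1.59 with an edgeR adjusted p of 0.0587. 3110070M22Rik had 1.08 to 5.10 and 5.53 to 7.40 CPM, a log2 fold change of 0.97 with an edgeR adjusted p of 0.155. DESeq2 and limma-voom called Ccl28. The genes next to Nnt itself showed little difference: Paip1, which encodes a partner of poly(A)-binding protein, had a log2 fold change of 0.0018 (edgeR adjusted p = 0.995), and the growth factor gene Fgf10 one of 0.17 (edgeR adjusted p = 0.702).

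Around Cyfip2, 1 of 13 tested neighbours was called, the testis transcription factor gene Sox30 (chromosome 11, 45980310 to 46017994), 176 kb away and lower. It stood at 1.43, 6.46, 10.8, 13.6 and 8.14 CPM in W1 to W5 and at 1.17, 1.10, 1.64, 1.53 and 2.47 CPM in K1 to K5. W1 lay within the range of the libraries labelled knockout, and the other wild-type libraries lay well above it. The log2 fold change was -2.36 (SE 0.42, edgeR adjusted p = 0.00662), and limma-voom did not call it (adjusted p = 0.0837). Fndc9, which lies inside Cyfip2 on the other strand, had a log2 fold change of -0.49 (edgeR adjusted p = 0.392). The metalloprotease gene Adam19 had one of -0.22 (edgeR adjusted p = 0.525).

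Around Crb1, 0 of 11 tested neighbours were called by edgeR, DESeq2 or limma-voom, and 2 had an unadjusted p under 0.05: Zbtb41, a zinc-finger gene, at -0.15 on the log2 scale, and Gm43544, named after its values were seen, at 0.85. Dennd1b, a regulator of endocytosis on the other side, had a log2 fold change of -0.13 (edgeR adjusted p = 0.504). Around Entpd4, 0 of 19 were called by edgeR, 5 had an unadjusted p under 0.05, DESeq2 called 2 and limma-voom 1. That 1 was Slc25a37, the mitochondrial iron carrier mitoferrin, at 32.8 ± 11.3 and 54.8 ± 9.44 CPM (SD, n = 5), a log2 fold change of 0.74 with an edgeR adjusted p of 0.0587. Gm16867, which overlaps Entpd4 and shares sequence with it, had a log2 fold change of 0.67 at under 1 CPM (edgeR adjusted p = 0.618). The lysyl oxidase gene Loxl2 had one of 0.27 (edgeR adjusted p = 0.468).

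**Figure D3:**
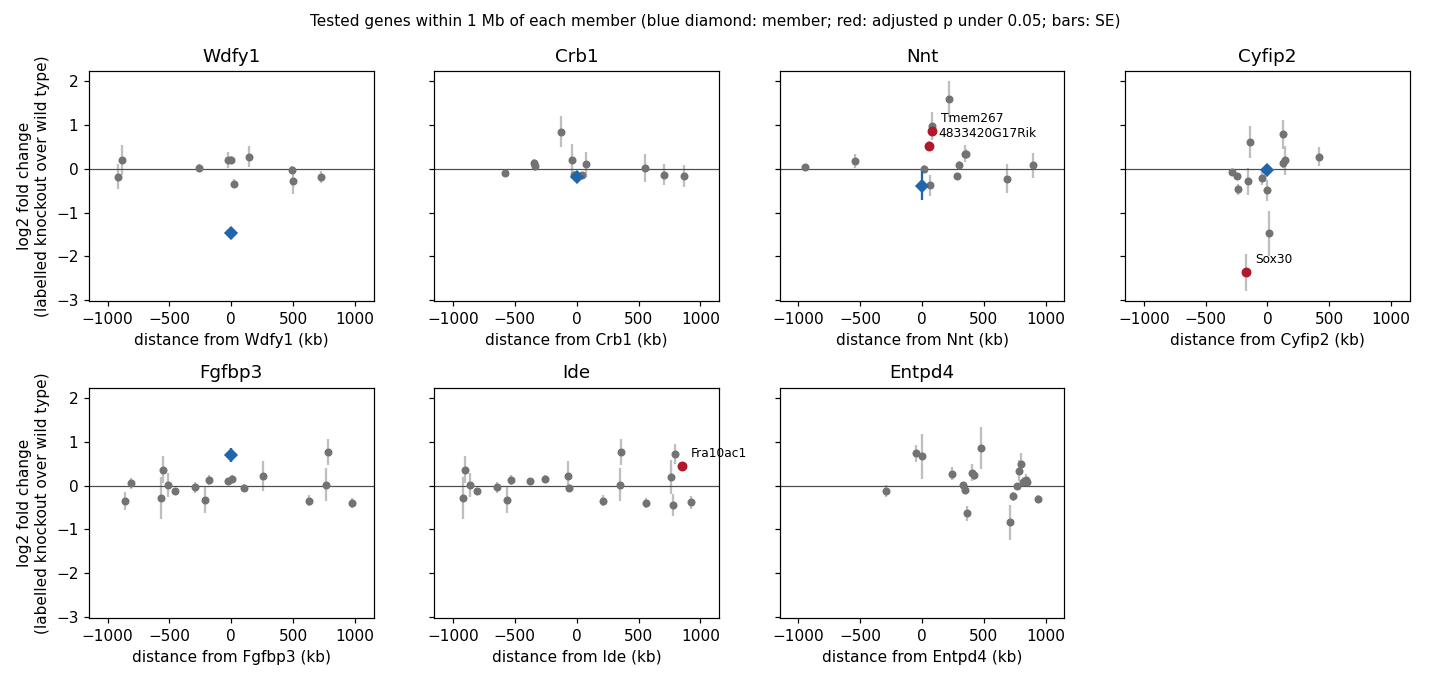
Log2 fold change (y axis, labelled knockout over wild type, bars SE) of each tested gene within 1 Mb of a member against its distance from it (x axis, kb); blue diamonds are members on their chromosome, red points passed an adjusted p of 0.05 and are named. Wdfy1, at -1.47, lies below all of its 10 neighbours, and the window of Nnt holds 2 red points.

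The other genes of the members' pathways were taken from 7 lists of 85 tested genes. None of the 85 genes was called by edgeR, DESeq2 or limma-voom, and 10 had an unadjusted p under 0.05, of which 3 were higher and 7 lower, beside 13.8% of all tested genes. Their log2 fold changes ran from -0.33 to 0.36 with a median of -0.0017, against 0.0018 over all tested genes. The change of Wdfy1 and of Fgfbp3 was thus not shared by a called partner among the tested genes of these lists. Listed genes below the filter on low counts could not be called.

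Around Wdfy1's role, 10 relatives and Toll-like receptor 3 and 4 signalling genes were tested, with a median log2 fold change of 0.04 and 0 at an unadjusted p under 0.05. Wdfy3, a selective autophagy scaffold, stood at 311 ± 43.7 and 308 ± 41.1 CPM (SD, n = 5), a log2 fold change of -0.01 (edgeR adjusted p = 0.983). Irf3, the transcription factor that acts downstream of TRIF, stood at 64.7 ± 12.6 and 74.4 ± 10.1 CPM (SD, n = 5), a log2 fold change of 0.20 (edgeR adjusted p = 0.53). For Fgfbp3, 11 fibroblast growth factors and receptors had a median of 0.02 and 0 at an unadjusted p under 0.05. Among the 11 tested, the growth factor gene Fgf1 had a log2 fold change of -0.33 (edgeR adjusted p = 0.373), with W5 at 87.3 CPM and all other libraries between 38.9 and 52.5 CPM. The glia-activating factor gene Fgf9 had one of 0.02 (edgeR adjusted p = 0.96).

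For Nnt, 12 genes of mitochondrial NADPH supply and peroxide removal had a median log2 fold change of 0.02. Gpx4, which reduces lipid peroxides, stood at 0.19 (edgeR adjusted p = 0.354), and Sod2, the mitochondrial superoxide dismutase, at -0.0017 (edgeR adjusted p = 0.995). For Ide, 11 peptide proteases, insulin receptors and substrates had a median of -0.06. App, the amyloid precursor gene, stood at 0.07 (edgeR adjusted p = 0.794) and Igf1r, the receptor of insulin-like growth factor 1, at -0.0049 (edgeR adjusted p = 0.985). For Entpd4, 9 nucleotide hydrolases had a median of -0.04. Of these, the ectonucleotidase gene Nt5e stood at -0.24 (edgeR adjusted p = 0.321) and passed the test only without K1 (-0.37, edgeR adjusted p = 0.015), and the cytosolic nucleotidase gene Nt5c2 stood at -0.06 (edgeR adjusted p = 0.776).

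For Crb1, 16 genes of the Crumbs polarity complex had a median log2 fold change of -0.05. The photoreceptor scaffold gene Mpp4 stood at 407 ± 49.0 and 478 ± 65.4 CPM (SD, n = 5), a log2 fold change of 0.23 (edgeR adjusted p = 0.354). Crb2, the paralog of Crb1 in the retina, stood at 139 ± 7.81 and 148 ± 23.9 CPM (SD, n = 5), one of 0.10 (edgeR adjusted p = 0.728). For Cyfip2, 16 genes of the WAVE complex and of its partner FMRP had a median of 0.01. The WAVE subunits Wasf3 and Nckap1 stood at -0.09 (edgeR adjusted p = 0.675) and -0.08 (edgeR adjusted p = 0.669).

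A further list held other genes reported to vary between C57BL/6 substrains. Gabra2, the GABA-A receptor alpha-2 subunit (ENSMUSG00000000560.9, chromosome 5, 70957597 to 71095849, minus strand), carries an intronic deletion in C57BL/6J that is known to lower its expression. It stood at 55.2, 60.5, 42.7, 42.3 and 43.2 CPM in W1 to W5. In K1 to K5 it stood at 23.8, 25.8, 24.2, 33.3 and 24.6 CPM. The groups did not overlap, with K4 the highest of its group and W4 the lowest of the wild-type libraries.

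The mean of Gabra2 went from 48.8 ± 8.53 to 26.3 ± 3.94 CPM (SD, n = 5), a level 1.85-fold lower in the libraries labelled knockout. The log2 fold change was -0.89 (SE 0.12, 95% interval -1.16 to -0.61), with an edgeR adjusted p of 0.000606, and it was called under each of 17 alternatives in processing. Unlike in Wdfy1, W2 was the highest wild-type library of Gabra2 and W5 lay in the middle. Il6 is on the same chromosome, at 30013114 to 30019981. The guanine exchange factor gene Dock2 (log2 fold change 0.18, edgeR adjusted p = 0.863) did not pass the test. The multimerin gene Mmrn1 had 1 and 0 counts, and Nlrp12 was not analysed here.

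**Figure D4:**
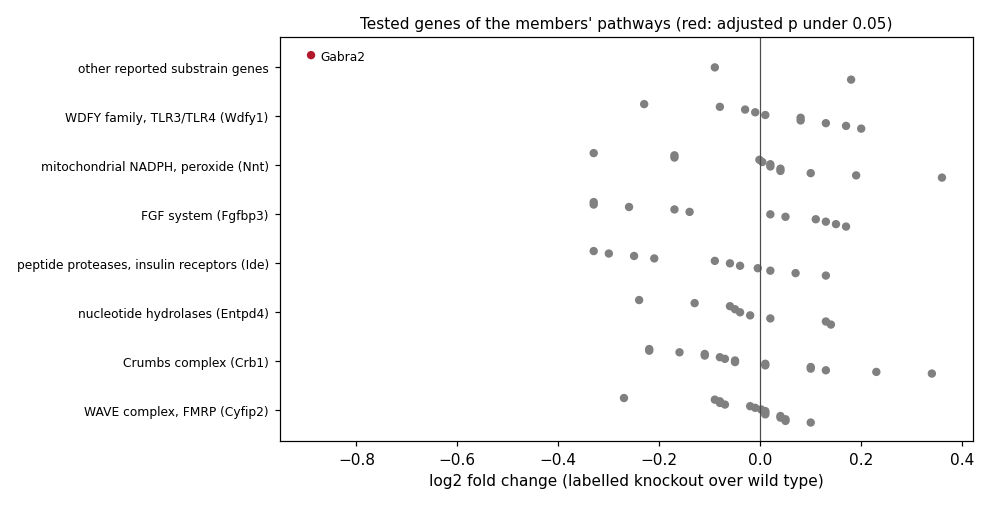
Log2 fold change (x axis, labelled knockout over wild type) of each tested gene in the 7 pathway lists and in the list of other substrain genes (rows); red marks an adjusted p under 0.05. Gabra2, at -0.89, is the only red point, and all 85 pathway genes lie between -0.33 and 0.36.

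The genes whose levels ran most like each member's over the 10 libraries were found by Pearson's r of log2 CPM, given as a description without a test. For Wdfy1 they were Gm10557 (r = 0.976), the gene of the RWD-domain protein Rwdd4a (r = 0.973) and the meiotic gene Sycp1 (r = 0.972), all called, on chromosomes 18, 8 and 3. As these genes also differed between the groups, r of the deviations from the group means is the closer reading, and it was 0.850, 0.697 and 0.670. For Fgfbp3 they were Fra10ac1 (r = 0.953), 2610528A11Rik (r = 0.947) and R3hcc1l (r = 0.941), with 0.874, 0.859 and 0.838 within groups. Fra10ac1 and R3hcc1l are on chromosome 19 like Fgfbp3, a chromosome that holds 2.83% of the tested genes. Of its 536 tested genes 14 were called, or 2.61%, with 11 higher and 3 lower.

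The members that were not called had other companions. For Crb1 these were the ubiquitin protease gene Usp25 (r = 0.966), the peptide N-glycanase gene Ngly1 (r = 0.959) and Slc46a3 (r = 0.942). For Cyfip2 they were the receptor phosphatase gene Ptpro (r = 0.943), the phosphatase gene Ppm1l (r = 0.927) and the protocadherin gene Pcdh9 (r = 0.922). The scaffold row of Ide ran with the adaptor genes Ap5m1 (r = 0.942) and Ap2a1 (r = 0.934) and with Map6 (r = 0.911). Nnt ran with Stmn4 (r = 0.872), Cenpo (r = 0.858) and Gba2 (r = 0.841), from 6 to 25 counts a library. None of these 12 genes was called by edgeR.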

How the data were processed

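Retinal RNA was sequenced in 10 libraries, grouped by genotype label. The authors deposited whole-number counts per gene; GRCm38.p5 was the build and STAR 2.5.3a, featureCounts 1.15.2, DESeq2 1.14, bcl2fastq and FastQC were used, per the submitters' processing notes. Settings for strand, overlapping genes and reads matching several places are not given in the sources used here. The same deposited table holds the authors' log2 fold changes, adjusted p-values, a mark of significance and a mean signal of scaled counts (not used).

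Genes were filtered with filterByExpr (minimum count 10, minimum total 15) and scaled by TMM. edgeR 4.0.16 (R 4.3.3) tested genotype alone with its quasi-likelihood test, and a Benjamini-Hochberg adjusted p under 0.05 over all 18965 genes was a call. SE is the absolute log2 fold change over the square root of F. The permutation test used log2 CPM (prior count 2) over 252 splits. Alternatives used DESeq2 1.42.0, limma 3.58.1 and sva 3.50.0. The fit was tested on simulated data.

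Named genes are the members, called or most abundant genes of each list, called and nearest coding neighbours, the 3 most alike genes per member, other substrain genes, and Il6; 2 genes that this rule names are not reported here. Members and lists were chosen with earlier results of these data known. Transcript stretches of 100 bases were compared with GENCODE M21. Counting intervals cover counting error only. No pair of libraries within a group agreed within sampling noise.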

Additional observations from a re-analysis of the deposited data

Results flagged for a closer look

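Of 25 groups of 5 libraries looked at, 3 had a library whose gap to the others exceeded Dixon's critical value, and chance flags about 1 in 20 such groups. All 3 were in libraries labelled knockout. Wdfy1 stood at 27.3 CPM in K2, against 23.2 to 23.9 CPM in the other K libraries, and was still below every wild-type library. Cyfip2 stood at 448 CPM in K3, against 365 to 386 CPM in the other K libraries. Gabra2 stood at 33.3 CPM in K4, against 23.8 to 25.8 CPM.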

How the results depend on the processing

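No paired analysis was possible because the labels carry no replicate numbers. With each library left out in turn, Fgfbp3 ranged from 0.62 to 0.87 on the log2 scale, Ide from -0.24 to 0.26, Cyfip2 from -0.07 to 0.01 and the Entpd4 ratio from -0.03 to 0.56. Ide was 0.00067 with 1 surrogate variable. Genes called higher, 163 in the reported fit, numbered 314 with DESeq2, 298 with no low-count filter, 330 with 1 surrogate variable and 71 to 253 with a library left out. Genes called lower, 222 in the reported fit, numbered 388, 406, 362 and 140 to 289 in the same order. Called neighbours numbered 11, 11, 8 and 1 to 9, and 2 without the neighbours of Nnt, which was chosen after seeing the data. Members called ran from 1 to 2, and list genes called from 1 to 2, with a library left out. Wdfy1 and Gabra2 were called in the reported fit and in each of their 17 alternatives. Fold changes of Crb1 and Nnt stayed negative and uncalled in the alternatives that could test them, and at a minimum of 1 CPM Nnt had no value. Why these values moved, beyond the smaller number of libraries or the different set of genes tested, was not tested. Nnt (73 and 55 counts) and Entpd4 (37 and 45 counts) rest on few reads. Of their compared transcript stretches, 96.3% and 100% also occur in other gene models. Reads were not examined, so how many of those counted match elsewhere is not known. For the scaffold row of Ide, counting error alone leaves a ratio between 0.841 and 1.13, and its fitted interval, which includes the spread between libraries, is wider.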
